A study of Homo sapiens with 4 samples.

Results

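The HOX genes encode homeodomain transcription factors that stand in 4 clusters, HOXA on chromosome 7, HOXB on chromosome 17, HOXC on chromosome 12 and HOXD on chromosome 2. Along each cluster the genes are numbered from the 3′ end, and genes of different clusters with the same number are paralogues. In the embryo, genes near the 3′ end are switched on early and in the hindbrain and neck, and genes towards the 5′ end are switched on later, in the trunk, the tail and the distal limb. Adult cells and cell lines often keep a HOX profile that records where in the body they came from, and the proteins bind DNA with cofactors of the PBX, MEIS and PKNOX families. The members were taken by symbol alone, as every gene named HOXA, HOXB, HOXC or HOXD followed by a number, a rule that uses no measured value. The rule found 39 genes of 39323 in the expression files, with 11 in HOXA, 10 in HOXB, 9 in HOXC and 9 in HOXD.

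The study asked what depletion of SKP2, the F-box subunit that selects substrates for an SCF ubiquitin ligase, does in fusion-negative rhabdomyosarcoma, a tumour of the skeletal muscle lineage. RNA was measured in RD and JR1, both established lines of this tumour. The 4 groups were RD with shSCR, RD with shSKP2.2, JR1 with shSCR and JR1 with shSKP2.2, where shSKP2.2 is a single hairpin against SKP2 and shSCR a non-targeting hairpin. All of them carried a lentiviral vector and went through puromycin selection, so the libraries that the labels call wild type were also infected, and no uninfected library was analysed here. There was 1 library per group. None of the differences given here could be checked against replicates, and no p-value is given for a single difference.

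Expression is given in TPM, a measure of transcript abundance that sums to the same total in every library. The values are corrected for gene length and so can be compared between genes. TPM keep no read numbers, and the depth behind a value is unknown. SKP2 itself was lower with its hairpin, at 7.40 vs 92.8 TPM in RD and 2.72 vs 46.5 TPM in JR1. Of 8 muscle lineage markers, MYF5 was listed at 0 in all 4 libraries and the other 7 were compared, with MYOD1 between 87.0 and 131 TPM. The 4 epithelial markers summed to at most 0.270 TPM and the 3 blood cell markers to at most 0.230 TPM in any library. Short structural RNA genes, such as those of the signal recognition particle RNA, made up 58.6% of the shSCR and 69.1% of the shSKP2.2 TPM in RD, and 66.5% and 72.1% in JR1. What they take is lost to all other genes of the same library. Each comparison of the HOX genes is therefore also given relative to the median change of all genes or after rescaling. In rescaling, these 3048 genes are taken out and the rest scaled up to the former total. The part of this share in any single HOX value was not tested.

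Differences are on a log2 scale after 1 TPM was added to both values, which understates changes of low genes. Only genes that averaged 1 TPM or more across the libraries were compared, 12983 in all and 32 of the 39 HOX genes. A gene was called higher or lower when this log2 difference reached 1 in size, and "rose" and "fell" are used for such calls alone. Where 4 TPM values follow a gene, RD comes before JR1 and, within a line, shSCR before shSKP2.2. The 7 HOX genes below the minimum were HOXA2, HOXA13, HOXB1, HOXD1, HOXD10, HOXD11 and HOXD12. HOXD3 passed it through the RD libraries, as it was below 1 TPM in both JR1 libraries. Of the muscle markers, PAX7, a marker of muscle stem cells, fell with shSKP2.2 in both lines (-1.43 in each) and was called lower in JR1 in both conditions, although it was at -0.80 with shSCR after rescaling. MYOG, a factor of differentiation, had changes of 0.87 in RD and 0.98 in JR1 and was past the limit in both lines after rescaling, and MYMK, which acts in myoblast fusion, was called higher in JR1, at 12.0 vs 1.22 TPM with shSCR. The part of the muscle markers in the HOX values was not tested.

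HOXB2, HOXA3, HOXC11, HOXA7, HOXA10 and HOXA11 were the HOX genes called lower with shSKP2.2 in RD or JR1. Promoter sequences are shown for the 4 of them with an entry in the table used, as genes called in the knockdown comparison. The HOX genes called lower there, 3 of 32 in RD and 4 of 32 in JR1, stood near the shares of all genes, 7.37% and 9.05%. The windows are the 250 bases before the annotated start of HOXA3, HOXA7, HOXA10 and HOXA11, read 5′ to 3′ on the minus strand of RefSeq GRCh38.p14. Capitals mark CAGCTG, a form of the E-box (CANNTG) that proteins of the MYOD family can bind, and CCAAT, which is also marked where it reads ATTGG on the other strand. The HOXA3 window lies at chr7:27152584-27152833, the HOXA7 window at chr7:27156676-27156925, the HOXA10 window at chr7:27179862-27180111 and the HOXA11 window at chr7:27185233-27185482.
HOXA3: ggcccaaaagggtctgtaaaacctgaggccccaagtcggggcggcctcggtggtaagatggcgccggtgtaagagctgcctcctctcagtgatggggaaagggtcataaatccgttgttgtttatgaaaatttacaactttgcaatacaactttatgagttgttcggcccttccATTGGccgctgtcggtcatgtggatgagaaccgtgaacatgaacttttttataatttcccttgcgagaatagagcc
HOXA7: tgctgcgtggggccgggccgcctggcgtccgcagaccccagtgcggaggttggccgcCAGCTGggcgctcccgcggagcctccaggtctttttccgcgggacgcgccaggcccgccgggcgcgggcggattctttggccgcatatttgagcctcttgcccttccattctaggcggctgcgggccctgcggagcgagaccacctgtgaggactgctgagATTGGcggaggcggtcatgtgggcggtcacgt
HOXA10: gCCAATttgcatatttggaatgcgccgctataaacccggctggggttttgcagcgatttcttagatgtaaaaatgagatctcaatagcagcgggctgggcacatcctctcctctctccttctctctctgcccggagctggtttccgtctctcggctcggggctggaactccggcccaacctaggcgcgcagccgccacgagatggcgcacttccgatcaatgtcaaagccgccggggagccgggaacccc
HOXA11: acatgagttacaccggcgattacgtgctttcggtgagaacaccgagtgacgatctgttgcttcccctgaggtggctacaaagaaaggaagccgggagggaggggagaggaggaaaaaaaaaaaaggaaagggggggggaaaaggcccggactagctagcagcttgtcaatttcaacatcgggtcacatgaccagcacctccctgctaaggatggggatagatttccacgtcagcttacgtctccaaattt
Other forms of the E-box were not searched. HOXA7 was the one window of these 4 with CAGCTG, and it was also the richest in G and C, at 70.8% against a median of 58.0% over the 35116 human promoters of the same table. HOXA3 had 48.8% GC, HOXA11 51.6% and HOXA10 58.8%. CCAAT stood once each in the HOXA3, HOXA7 and HOXA10 windows and was not found in the HOXA11 window. Over the HOX promoters with an entry at the start the files give (18 genes in 17 distinct windows, since HOXC4 and HOXC5 share one), CCAAT was found on either strand in 14 of 17, compared with 32.0% of all promoters. CAGCTG was found in 3 of 17, those of HOXA6, HOXA7 and the shared HOXC4 and HOXC5 window, compared with 14% of all promoters. TGATTNAT, a composite site of PBX and HOX proteins, was found in the windows of HOXA2 and HOXD11, 2 of 17, compared with 2.48% of all promoters. These matches describe letters in the window and not binding, which was not analysed here.

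Both lines expressed a broad HOX profile that ran over all 4 clusters, and RD expressed more of it than JR1. At least 1 TPM was reached by 36 of the 39 genes with shSCR and 34 with shSKP2.2 in RD, compared with 30 and 28 genes in JR1. Of these, 27 genes were at or above 1 TPM in all 4 libraries. HOXA13, HOXB1 and HOXD12 were below 1 TPM in all 4, and HOXB1 was listed at 0 throughout. HOXD1, HOXD3 and HOXD10 were at or above 1 TPM in both RD libraries and in no JR1 library, and 0 genes had the opposite pattern. The share of all genes with either pattern is not given here, so these counts are description only. They are of TPM as deposited, and which genes keep a pattern after rescaling is not given. After rescaling, at least 1 TPM was reached by 37 genes in each RD library, and in JR1 by 33 with shSCR and 32 with shSKP2.2. In bulk RNA, fewer cells that express a gene and less RNA of it per cell cannot be told apart.

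**Figure D1:**
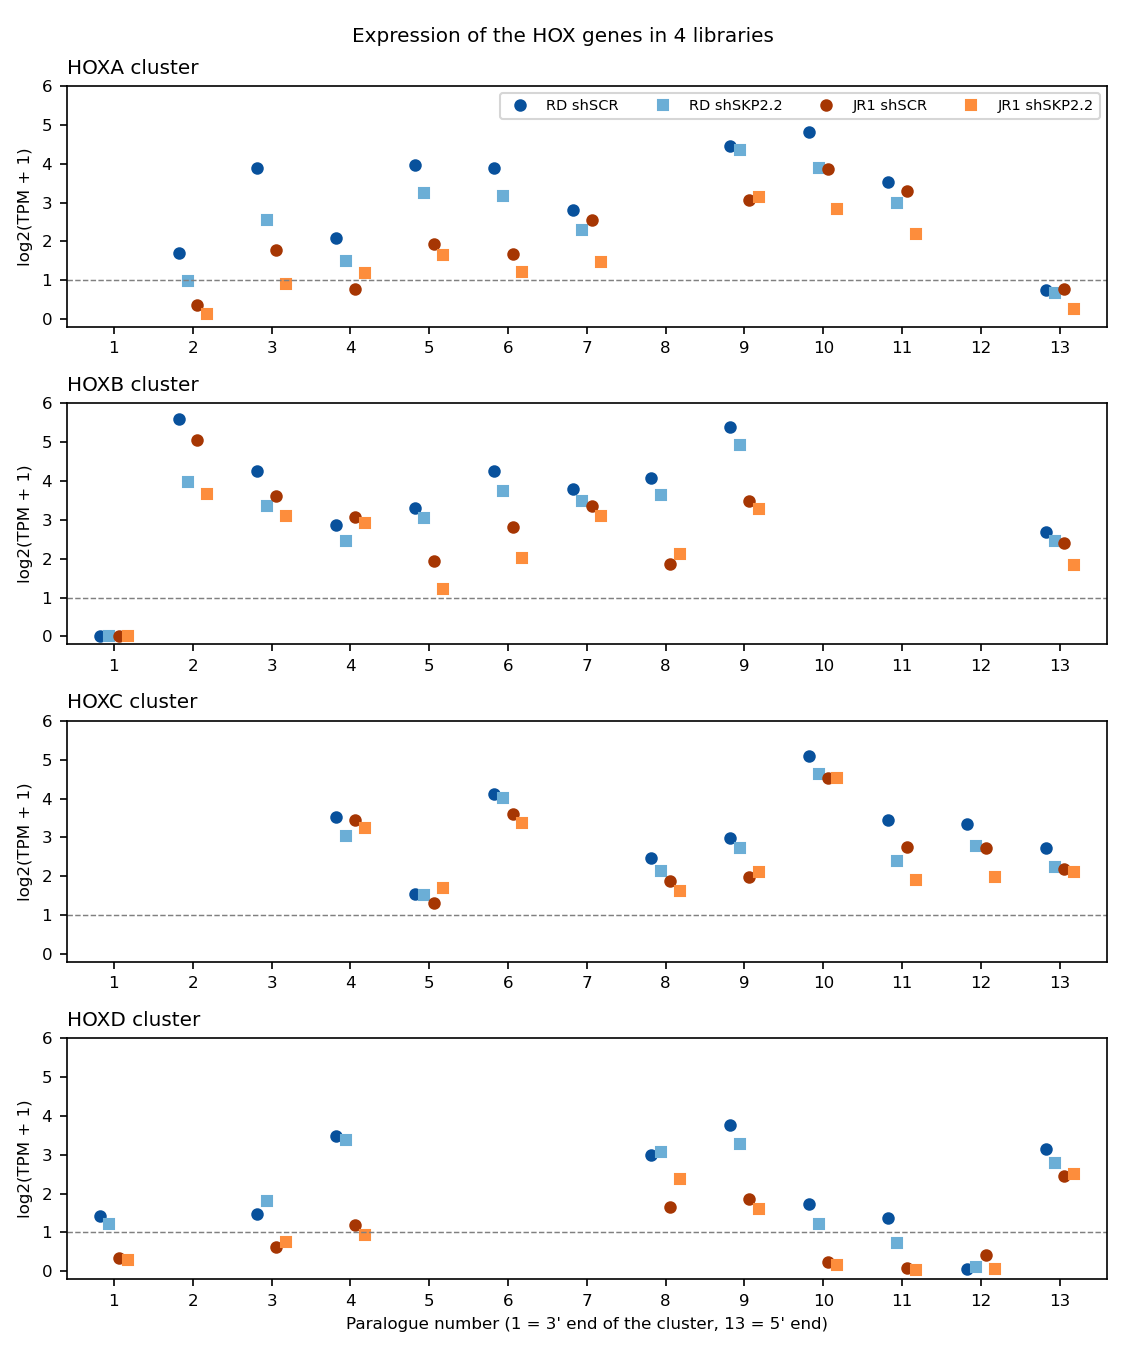
Expression of 38 HOX genes as log2(TPM + 1) against the paralogue number, 1 panel per cluster, with RD in blue, JR1 in orange, circles for shSCR and squares for shSKP2.2 (1 library each). The dashed line marks 1 TPM. All HOXC genes lie above it in every library, and in HOXD the JR1 points lie above it for 4 genes in shSCR and 3 in shSKP2.2.

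The plot of levels by paralogue number shows how the clusters differed in TPM as deposited. In HOXC all 9 genes were at or above 1 TPM in each of the 4 libraries. In HOXB it was 9 of 10 in each library, all except HOXB1. In HOXA the number was 10 of 11 with shSCR and 9 with shSKP2.2 in RD and 8 and 7 in JR1. HOXD varied most between the lines, with 8 and 7 of 9 genes in RD vs 4 and 3 of 9 in JR1 (shSCR and then shSKP2.2). The highest-numbered gene at or above 1 TPM was HOXA11 in HOXA and number 13 in HOXB, HOXC and HOXD, and this held in every library.

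Summed over its genes, HOXB was the most abundant cluster in RD in both conditions and in JR1 with shSCR. It summed to 174 TPM with shSCR and 104 with shSKP2.2 in RD and 86.0 and 52.6 in JR1. HOXA summed to 115, 70.2, 44.7 and 26.2 TPM in the same order, and HOXC to 98.2, 71.2, 65.0 and 56.5 TPM. HOXD was the lowest in all 4, at 45.3, 37.2, 11.9 and 12.8 TPM. As a share of all HOX TPM, which does not depend on the other genes of a library, HOXC made up 22.7% and 25.2% in RD vs 31.3% and 38.2% in JR1, shSCR before shSKP2.2. HOXD made up 10.5% and 13.2% in RD vs 5.73% and 8.67% in JR1.

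By position along the clusters, paralogues 9 to 13 made up the largest share in every library, between 44.4% and 47.8% of HOX TPM. Paralogues 4 to 8 made up 34.8% with shSCR and 39.8% with shSKP2.2 in RD and 32.5% and 37.6% in JR1. Paralogues 1 to 3 made up 20.0% in RD shSCR and 23.1% in JR1 shSCR, whereas with shSKP2.2 their shares were 12.4% and 14.9%. These shares are sums over 16 posterior, 15 central and 8 anterior genes. The median gene was higher in the central than in the posterior group in RD, at 10.2 vs 8.55 TPM with shSCR and 7.37 vs 5.79 TPM with shSKP2.2. In JR1 it was lower, at 2.80 vs 4.42 TPM and 2.26 vs 3.12 TPM. HOXB2 was the most abundant anterior gene in each library. Over the 39 genes, the log2 levels of the shSCR and shSKP2.2 libraries of a line were more alike than those of both lines, with Pearson's r of 0.96 (Spearman's rho 0.95) in RD, 0.94 (0.92) in JR1 and 0.85 (0.80) between the lines in shSCR. These coefficients are across genes that share libraries and clusters and describe likeness only.

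Among the anterior paralogues 1 to 3, HOXB2 was the highest HOX gene in both shSCR libraries. HOXB2, which patterns the hindbrain and its cranial nerves, is at chr17:48542655-48545109 in GRCh38, the build of all gene positions given here, and was measured at 47.4 TPM with shSCR and 14.8 with shSKP2.2 in RD, and at 32.1 and 11.7 TPM in JR1. Both shSKP2.2 libraries lay below both shSCR libraries. HOXA3, needed for the thymus, the parathyroid and the throat cartilages, is at chr7:27107010-27152583, an interval that also contains HOXA4, HOXA5 and HOXA6. Its levels were 13.8 TPM with shSCR and 4.85 with shSKP2.2 in RD, and 2.44 and 0.860 TPM in JR1, and here the lines separated, as the lower RD library was above the higher JR1 library. HOXB3, a neighbour of HOXB2 with a role in the hindbrain, was at 18.1, 9.22, 11.3 and 7.66 TPM in the same order. HOXD3, which acts on the first neck vertebrae, was at 1.77, 2.48, 0.550 and 0.680 TPM. HOXA2 and HOXD1, both near the 3′ end of their clusters, stayed at or below 2.27 TPM everywhere. HOXD1 shares 60.1% of its exon bases with antisense exons.

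Among the central paralogues 4 to 8, most genes were at several TPM in RD and lower in JR1. HOXA5, which acts in the lung and the lower neck, was at 14.7 TPM with shSCR and 8.52 with shSKP2.2 in RD, and at 2.80 and 2.14 TPM in JR1. Its neighbour HOXA6 was at 13.7, 8.0, 2.21 and 1.31 TPM. The lower RD library was well above the higher JR1 library for both. HOXA4 was at 3.28 TPM with shSCR and 1.82 with shSKP2.2 in RD, and at 0.720 and 1.28 TPM in JR1, which kept the lines apart by a smaller margin. HOXA7 was at 6.06, 3.86, 4.88 and 1.75 TPM, with overlapping lines, but 62.5% of its exon bases face the exons of the antisense gene HOXA-AS3 and the strand setting of the counting is not given in the sources used here. HOXA-AS3 was listed at 0.730 TPM or less.

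In the central part of HOXB, HOXB6 was at 18.1 TPM with shSCR and 12.4 with shSKP2.2 in RD, and at 6.06 and 3.09 TPM in JR1, and HOXB5, which acts on the shoulder and the gut wall, at 8.95, 7.24, 2.84 and 1.35 TPM. HOXB8, a gene of the thorax also known from blood progenitors, was at 15.8, 11.4, 2.65 and 3.39 TPM. In these 3 genes every RD value was above every JR1 value. HOXB7, which lies between HOXB6 and HOXB8, had the same order by a smaller margin, at 13, 10.2, 9.21 and 7.57 TPM. In TPM as deposited, HOXB4, known for its effect on blood stem cells, was the single HOX gene with both JR1 libraries above both RD libraries. It was at 6.29 and 4.52 TPM in RD vs 7.43 and 6.59 TPM in JR1. After rescaling, HOXC4 also had log2 differences of JR1 over RD above 0 in both conditions, at 0.21 with shSCR and 0.35 with shSKP2.2.

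The central genes of the other clusters split in the same comparison. HOXD4, at chr2:176150394-176156078, was at 10.2 and 9.36 TPM in RD vs 1.29 and 0.920 TPM in JR1, and HOXD8 at 6.96 and 7.37 TPM in RD vs 2.13 and 4.18 TPM in JR1 (shSCR and then shSKP2.2). HOXC4 was close between the lines, while HOXC6 had both JR1 libraries below both RD libraries. HOXC4 was at 10.6 TPM with shSCR and 7.21 with shSKP2.2 in RD, and at 9.99 and 8.38 TPM in JR1, and HOXC6, a marker of the brachial level, at 16.3, 15.2, 11.1 and 9.36 TPM. HOXC5 and HOXC8 ranged from 1.47 to 4.54 TPM over the 4 libraries. HOXC5 is uncertain, since 67.3% of its exon bases are also exon bases of other genes on the same strand.

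Among the posterior paralogues 9 to 13, number 9 and number 10 genes were the most abundant. HOXB9, a gene of the thoracic ribs at chr17:48621156-48626358, was at 41.2 TPM with shSCR and 29.6 with shSKP2.2 in RD, and at 10.2 and 8.70 TPM in JR1. HOXC10, which acts at the lumbar level and in the hindlimb, at chr12:53985146-53990279, was at 33.1, 24.0, 22.0 and 22.2 TPM, and it was the highest HOX gene in JR1 shSKP2.2 as HOXB9 was in RD shSKP2.2. HOXB9 thus differed widely between the lines while the JR1 values of HOXC10 reached close to its RD shSKP2.2 value.

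HOXA9, a regulator of blood progenitors and the trunk, was at 21.1 TPM with shSCR and 19.5 with shSKP2.2 in RD, and at 7.42 and 7.90 TPM in JR1. HOXC9 was at 6.96, 5.67, 2.93 and 3.29 TPM, and HOXD9, a limb gene, at 12.7, 8.67, 2.61 and 2.02 TPM. All 3 of these number 9 paralogues had both RD values above both JR1 values, as HOXB9 did. HOXA10, which acts on the lumbar spine, the upper leg and the uterus, was at 27.3 TPM with shSCR and 13.7 with shSKP2.2 in RD, and at 13.5 and 6.15 TPM in JR1. The number 10 gene of HOXD stayed low, as HOXD10 was at 2.33 TPM or less.

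The number 11 genes act on the forearm and lower leg and on the kidney. HOXA11 was at 10.5 TPM with shSCR and 6.91 with shSKP2.2 in RD, and at 8.75 and 3.60 TPM in JR1, and HOXC11 at 9.90, 4.21, 5.73 and 2.72 TPM. For both genes the shSCR libraries of both lines were above the shSKP2.2 libraries of both lines. HOXC12 was at 9.19, 5.91, 5.57 and 2.96 TPM. HOXD11 and HOXD12 stayed at or below 1.61 TPM.

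The terminal number 13 genes pattern the distal limb, the tail and the urogenital tract. HOXD13, a gene of the digits, was at 7.92 TPM with shSCR and 5.95 with shSKP2.2 in RD, and at 4.50 and 4.63 TPM in JR1. HOXC13, a gene of hair and nails, was at 5.67, 3.75, 3.51 and 3.30 TPM, and HOXB13, a gene of the prostate and the tail, at 5.45, 4.54, 4.33 and 2.56 TPM. HOXA13, also a gene of the digits, was at 0.720 TPM or less in all 4 libraries, so the number 13 paralogues of 3 clusters were measured at several TPM without that of HOXA.

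Between the lines, the first comparison set JR1 against RD in the shSCR libraries, and the HOX genes were lower in JR1. Of 32 genes compared, 13 were called lower and 0 higher, against 6.50% of all 12983 genes called lower and 3.45% called higher. The 13 were HOXA3, HOXA4, HOXA5, HOXA6, HOXA9, HOXB5, HOXB6, HOXB8, HOXB9, HOXC9, HOXD4, HOXD8 and HOXD9. The largest log2 difference was that of HOXD4 at -2.29, followed by HOXB8 at -2.21, HOXA6 at -2.19, HOXA3 at -2.10 and HOXA5 at -2.05. HOXB4 had a difference of 0.21 and was the one gene above 0.

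The median log2 difference of the 32 HOX genes was -0.70, beside -0.23 for all genes, and 31 of 32 (96.9%) lay below 0, beside 71.4% of all genes. Set against the all-gene median, the HOX median was -0.46 and 30 of 32 lay below 0. By cluster, 5 of 9 genes compared were called lower in HOXA, 4 of 9 in HOXB, 1 of 9 in HOXC and 3 of 5 in HOXD. The cluster medians were -1.32 in HOXA, -0.64 in HOXB, -0.57 in HOXC and -1.35 in HOXD. By position, 8 of the 15 central genes were called lower, 4 of the 12 posterior genes compared and 1 of the 5 anterior genes compared, which was HOXA3. HOXC9 was at -1.02 as deposited but at -0.87 after rescaling, so that 0 of 9 HOXC genes were then past the limit.

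The shSKP2.2 libraries gave a second comparison of the lines that shares no library with the first. Here 12 of 32 HOX genes were called lower in JR1 and 0 higher, against 5.39% and 2.70% of all genes. Centred on the all-gene median, 10 of 32 were called lower and 0 higher, against 3.54% and 3.70%. The largest log2 difference was again that of HOXD4, at -2.43, followed by HOXA6 at -1.96, HOXB5 at -1.81 and HOXB6 at -1.72. HOXA10 (-1.04) and HOXD3 (-1.05) were called in this comparison and had differences of -0.97 and -0.84 in the first, but centred on the all-gene median they were at -0.87 and -0.88 here. HOXA4, HOXC9 and HOXD8, called in the first, had differences of -0.31, -0.64 and -0.69 in the second.

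HOX genes called lower in JR1 in both comparisons numbered 10 of 32, against 3.40% of all genes. They were HOXA3, HOXA5, HOXA6, HOXA9, HOXB5, HOXB6, HOXB8, HOXB9, HOXD4 and HOXD9, and none was a HOXC gene. The HOX median of the second comparison was -0.67, beside -0.17 for all genes, and 29 of 32 (90.6%) lay below 0, beside 67.8% of all genes. Without regard to size, both JR1 libraries were below both RD libraries for 24 of 32 HOX genes, against 34.5% of all genes. After removal of the short structural RNA genes it was 27 of 37, against 22.7%. In a limma fit of line and hairpin together over the 4 libraries, which takes the conditions as a pair for the line term and has 1 residual degree of freedom, 17 of 32 HOX genes were lower in JR1 at an adjusted p under 0.05 and 0 higher, against 18.7% and 5.55% of all genes. After rescaling these were 18 and 0 of 37, against 8.73% and 8.06%. At an unadjusted p under 0.05 in the rescaled limma fit, 22 of 37 were lower and 1 higher, against 16.3% and 15.4% of all genes. HOXA2, HOXD1, HOXD10 and HOXD11 are among these 18 and among the 27 above, and were compared after rescaling alone. They were at 0.290 TPM or less in both JR1 libraries as deposited and passed the minimum through RD, so their counts follow in part from it. For the line term, the fit measures how alike the line difference was in both conditions. It does not measure the spread between replicates of a line.

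**Figure D2:**
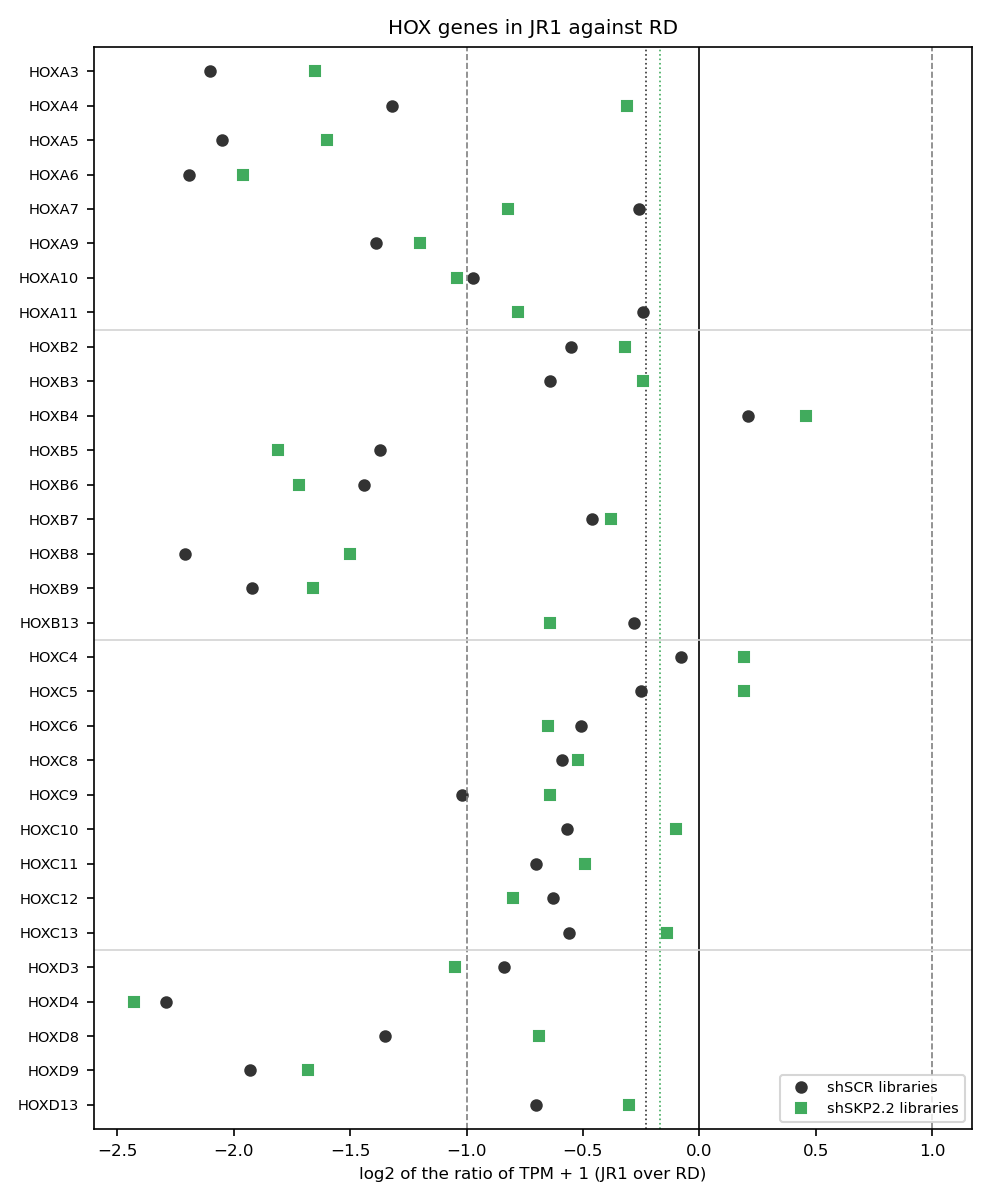
Log2 of the ratio of TPM + 1 in JR1 over RD for 31 of the HOX genes compared, in the shSCR libraries (dark circles) and the shSKP2.2 libraries (green squares), 1 library per line and condition. Dashed lines mark the limit of 1 in size and dotted lines the median of all genes, -0.23 and -0.17. HOXD4 lies farthest to the left in both, and HOXB4 lies to the right of 0 in both.

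The sums of the clusters showed the same order in both conditions, as the plot of JR1 over RD does gene by gene. With shSCR, the TPM sum of JR1 was 38.9% of that of RD for HOXA, 49.3% for HOXB, 66.2% for HOXC and 26.3% for HOXD. With shSKP2.2 it was 37.2%, 50.5%, 79.4% and 34.5%. Without the short structural RNA genes, the values with shSCR were 48.1%, 60.9%, 81.8% and 32.5%, so HOXD was the cluster with the widest gap between the lines and HOXC the one with the narrowest on both scales.

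The next comparison set shSKP2.2 against shSCR within RD, and 3 of 32 HOX genes were called lower and 0 higher, against 7.37% of all genes called lower and 1.08% called higher. HOXB2 fell by 1.61 on the log2 scale, HOXA3 fell by 1.33 and HOXC11 fell by 1.06. HOXA10 at -0.94 and HOXB3 at -0.90 lay just inside the limit. The largest positive value was 0.33, that of HOXD3, and HOXD8 at 0.07 was the other gene above 0.

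The median log2 change of the HOX genes in RD was -0.46, beside -0.27 for all genes, and 30 of 32 (93.8%) lay below 0, beside 75.0% of all genes. This depended on the scale. Set against the all-gene median, the HOX median was -0.19 with 23 of 32 below 0. After removal of the short structural RNA genes, the HOX median was -0.05, that of all genes 0.12, and 2 of 37 HOX genes were called lower and 0 higher, against 3.45% and 4.40% of 15194 genes. These 2 were HOXB2 at -1.24 and HOXA3 at -1.04, while HOXC11 was at -0.77.

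In JR1, 4 of 32 HOX genes were called lower with shSKP2.2 and 0 higher, against 9.05% of all genes called lower and 1.78% called higher. HOXB2 fell by 1.39 on the log2 scale, HOXA7 fell by 1.10, HOXA11 fell by 1.08 and HOXA10 fell by 1.02. HOXA3 had a change of -0.89 and HOXC11 of -0.86. The largest positive value was that of HOXD8, 0.73, followed by HOXA4 at 0.41 and HOXC5 at 0.40.

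The median log2 change of the HOX genes in JR1 was -0.25, beside -0.21 for all genes, and 23 of 32 (71.9%) lay below 0, beside 68.9% of all genes. Set against the all-gene median it was -0.04 with 19 of 32 below 0, and HOXB2 was then the one gene past the limit, at -1.17. After removal of the short structural RNA genes, 3 of 37 HOX genes were called lower, HOXB2, HOXA3 and HOXA7, against 7.48% of 15194 genes. On that scale HOXD8 was called higher, at 1.12, 1 of 37 against 4.89%. The shares of HOX genes called lower in either line thus stood near the shares of all genes.

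HOXB2 was the one HOX gene called lower with shSKP2.2 in both lines, 1 of 32 against 4.79% of all genes. It stayed past the limit in both lines with a pseudocount of 0.1 TPM (-1.67 in RD and -1.45 in JR1), centred on the all-gene median (-1.34 and -1.17) and without the short structural RNA genes (-1.24 and -1.18). HOXA3 was past the limit in RD under all 3 of these settings, with -1.48, -1.06 and -1.04, and in JR1 with the smaller pseudocount at -1.40 and after rescaling at -1.02. HOXC11, HOXA10 and HOXA11 were each below the limit in their line after rescaling, with -0.77 in RD, -0.84 in JR1 and -0.96 in JR1. In the same limma fit, the lines were the pair for the hairpin term. At an unadjusted p under 0.05, 15 of 32 HOX genes were lower with shSKP2.2 and 0 higher, against 36.7% and 6.52% of all genes. At an adjusted p under 0.05, 10 of 32 were lower and 0 higher, against 26.6% and 3.84% of all genes. After rescaling, 4 of 37 were lower, HOXA3, HOXA10, HOXB2 and HOXC11, against 9.32%, and HOXD8 was higher, 1 of 37 against 9.73%. This fit measures how alike both lines changed and not the spread between replicates of a line.

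**Figure D3:**
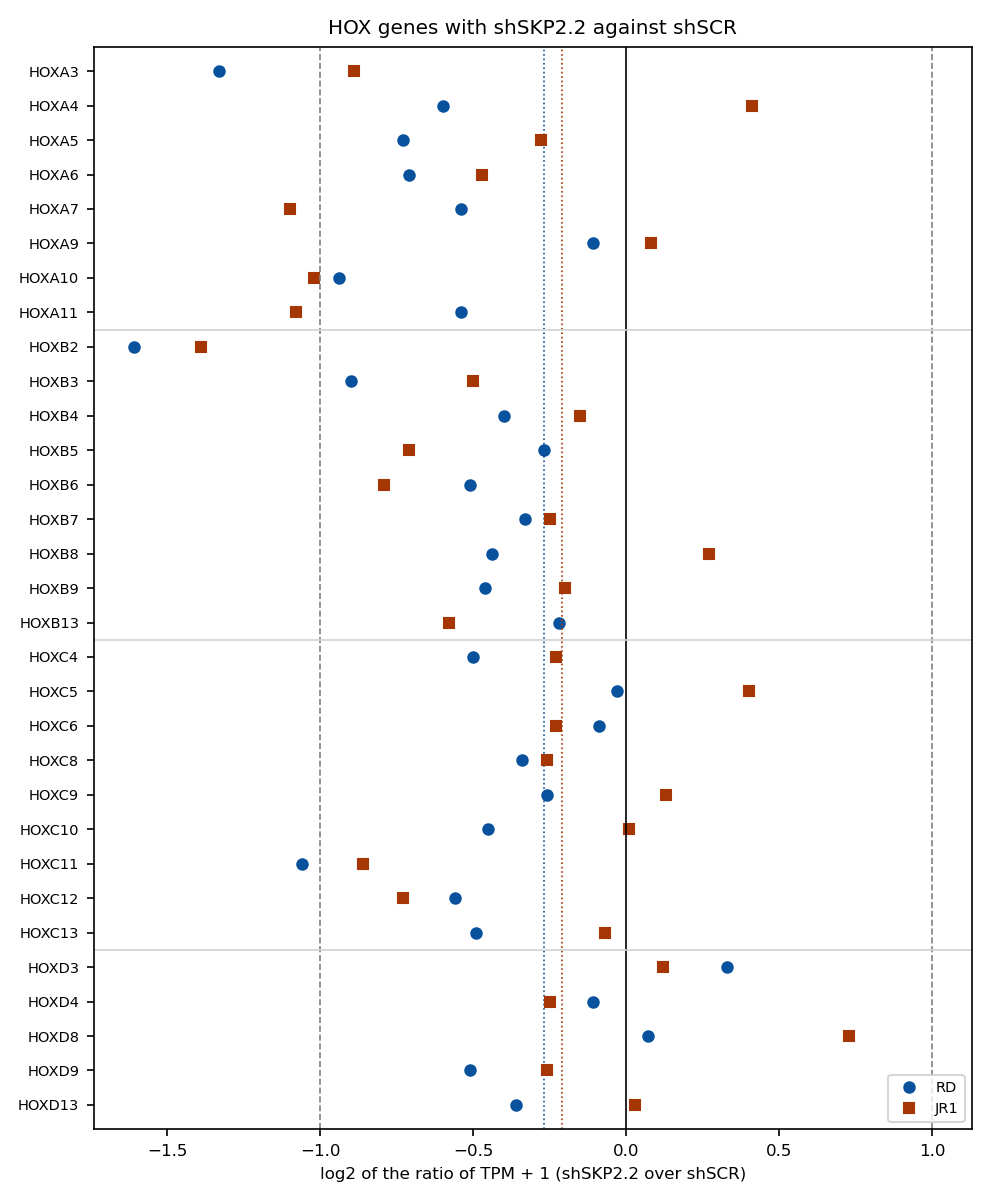
Change with shSKP2.2 against shSCR, as log2 of the ratio after 1 TPM was added, for 31 of the HOX genes compared, in RD (blue circles) and JR1 (orange squares), 1 library per condition. Dashed lines mark the limit of 1 in size and dotted lines the median of all genes, -0.27 in RD and -0.21 in JR1. HOXB2 is past the limit on the left in both lines, and no gene is past it on the right on this scale.

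Along the clusters, the anterior genes had the most negative medians in both lines. Over the 5 anterior genes compared the median was -0.90 on the log2 scale for RD and -0.50 for JR1, over the 15 central genes -0.40 and -0.25, and over the 12 posterior genes compared -0.48 and -0.23. For all genes the medians were -0.27 and -0.21. The anterior medians are the values of HOXB3 alone, and the 5 genes ran from HOXB2, at -1.61 and -1.39, to HOXD3, at 0.33 and 0.12. By cluster, the medians in RD were -0.60 in HOXA, -0.44 in HOXB, -0.45 in HOXC and -0.11 in HOXD. In JR1 they were -0.47, -0.50, -0.23 and 0.03. The summed TPM with shSKP2.2 was 61.1% of that with shSCR in RD for HOXA, 59.6% for HOXB, 72.5% for HOXC and 82.1% for HOXD. In JR1 the same values were 58.5%, 61.1%, 87.0% and 108%. After rescaling they were 81.9%, 79.9%, 97.1% and 110% in RD and 70.2%, 73.4%, 104% and 129% in JR1, so the sums of HOXA and HOXB were lower with shSKP2.2 on both scales, while those of HOXC and HOXD exceeded 100% in at least 1 line after rescaling. Single genes weighed on these sums. Without HOXB2, the rescaled HOXB sum was 94.1% in RD and 91.1% in JR1, and without HOXA9, which changed little, the rescaled HOXA sum was 72.5% and 58.7%. Without HOXC10 the rescaled HOXC sum in JR1 was 95.9%, and without HOXD8 that of HOXD was 106%.

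The plot of changes with shSKP2.2 shows that single neighbours differed. Next to HOXA10 and HOXA11, HOXA9 had changes of -0.11 in RD and 0.08 in JR1. Next to HOXB2, HOXB3 had -0.90 and -0.50, and HOXB4 had -0.40 and -0.15. In HOXC, HOXC10 had -0.45 and 0.01 beside -1.06 and -0.86 for HOXC11 and -0.56 and -0.73 for HOXC12. The sign differed between the lines for 7 of 32 genes, HOXA4, HOXA9, HOXB8, HOXC5, HOXC9, HOXC10 and HOXD13, and for none of them did both changes reach 0.5 in size.

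The noncoding RNA genes of the clusters were followed as a list of 18, of which 10 were compared. As deposited, 0 of 10 were called with shSKP2.2 in either line, against 7.37% of all genes lower and 1.08% higher in RD and 9.05% and 1.78% in JR1. After rescaling, 4 of 11 were past the limit in JR1, namely HOTAIRM1 (-1.07), HOTAIR (-1.11) and HOXC-AS2 (-1.13) below and HOXB-AS3 (1.30) above, against 7.48% of all genes lower and 4.89% higher. In JR1 against RD, 3 of 10 were called lower with shSCR and 5 of 10 with shSKP2.2, against 6.50% and 5.39% of all genes, and 0 higher, against 3.45% and 2.70%. HOXB-AS3, which lies among the HOXB genes, was at 9.07 TPM with shSCR and 10.5 with shSKP2.2 in RD, and at 0.870 and 2.19 TPM in JR1, with differences between the lines of -2.43 and -1.85. HAGLR, next to HOXD1, was at 5.37, 4.62, 0.860 and 0.930 TPM and so passed the minimum through RD alone, and HOXD-AS2 at 6.92, 3.24, 2.16 and 0.930 TPM. HOTAIRM1, antisense to the anterior end of HOXA, and HOXA10-AS were called in the shSKP2.2 libraries alone, at -1.31 and -1.23. HOTAIRM1 was at 2.29, 2.08, 0.970 and 0.240 TPM and so passed the minimum through RD alone, as HAGLR did. Where the counting did not use strand, these RNAs and the genes they face cannot be told apart.

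The TALE homeodomain cofactors, which bind DNA together with HOX proteins, were all compared, 9 of 9. With shSKP2.2, 1 of 9 was called lower in RD, against 7.37% of all genes, and 2 of 9 in JR1, against 9.05%, and 0 were called higher, against 1.08% and 1.78%. PBX2 fell in both lines, with log2 changes of -1.59 in RD and -1.19 in JR1, from 59.2 to 19.0 TPM and from 29.1 to 12.2 TPM. MEIS3 fell by 1.04 in JR1, from 12.6 to 5.63 TPM, and had a change of -0.35 in RD. After rescaling 0 of 9 were called in JR1, against 7.48% of all genes lower and 4.89% higher. PBX2 was then at -0.97 and MEIS3 at -0.87 in JR1. Between the lines, 3 of 9 were called lower in JR1 with shSCR and 1 of 9 with shSKP2.2, against 6.50% and 5.39% of all genes. MEIS2 was at 63.8 and 39.6 TPM in RD vs 17.9 and 17.6 TPM in JR1 and was called lower in JR1 in both conditions, at -1.78 and -1.12. MEIS1 (-1.07) and PBX2 (at 29.1 vs 59.2 TPM) were called lower in JR1 with shSCR alone, and PBX2 was at -0.71 after rescaling.

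**Figure D4:**
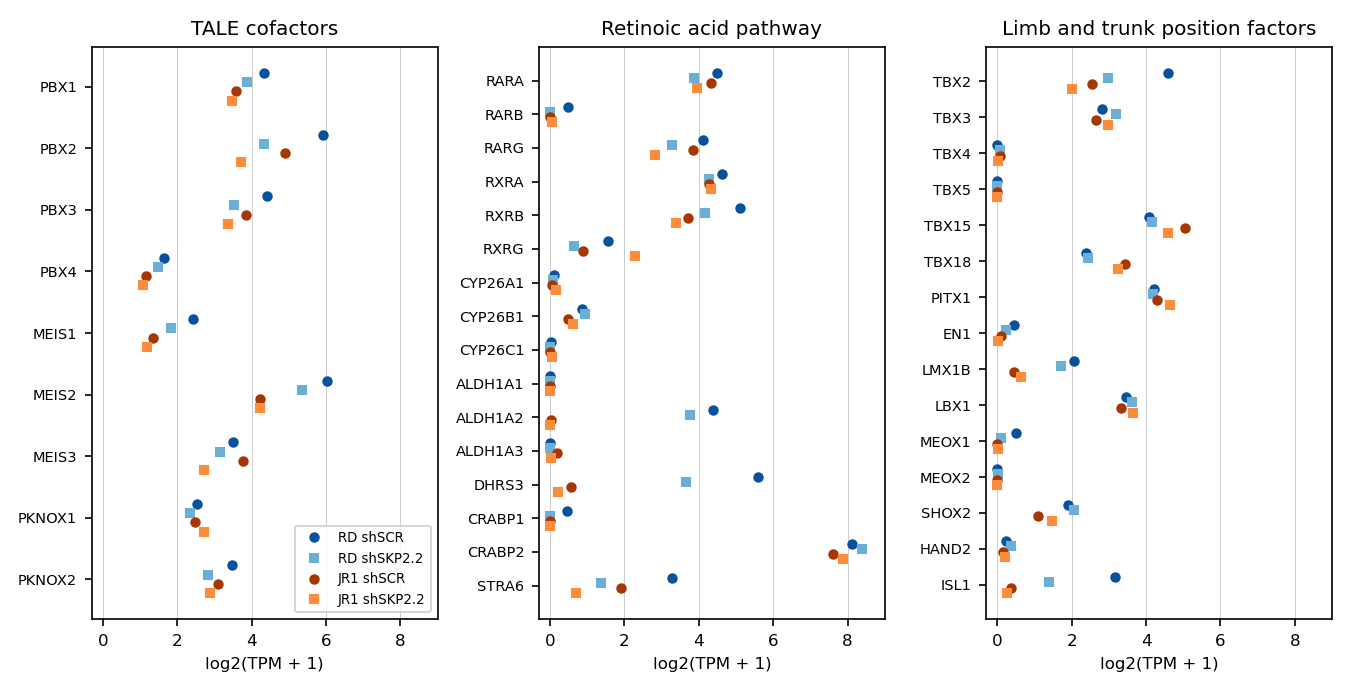
Levels of the TALE cofactors, the retinoic acid pathway and factors of limb and trunk position as log2(TPM + 1), with RD in blue, JR1 in orange, circles for shSCR and squares for shSKP2.2 (1 library each). The widest gaps between the lines are those of ALDH1A2 and DHRS3, at several TPM or more in RD and at 0.480 TPM or less in JR1.

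Retinoic acid switches on anterior HOX genes in the embryo. Of the 16 genes of its pathway 9 were compared, and 4 were called lower in JR1 than in RD with shSCR, with 0 higher, against 6.50% and 3.45% of all genes. With shSKP2.2, 2 were called lower in JR1 and 1 higher, RXRG at 1.64, against 5.39% and 2.70%. ALDH1A2 and DHRS3, the 2 called lower in both conditions, were below 1 TPM in both JR1 libraries and passed the minimum through RD alone, so that their calls follow in part from that minimum. ALDH1A2, which makes retinoic acid, was at 20.0 and 12.6 TPM in RD vs 0.0200 and 0 TPM in JR1. DHRS3, which turns retinaldehyde back to retinol, was at 47.5 and 11.6 TPM in RD vs 0.480 and 0.160 TPM in JR1, and it fell by 1.95 with shSKP2.2 in RD. STRA6, a receptor that takes up retinol, was at 8.76 and 1.59 TPM in RD vs 2.76 and 0.630 TPM in JR1, and fell with shSKP2.2 in both lines (-1.91 and -1.21). RXRB was called lower in JR1 with shSCR, at 12.2 vs 33.6 TPM, and RARG fell by 1.03 with shSKP2.2 in JR1, from 13.4 to 6.09 TPM, but was at -0.85 after rescaling. RXRG was called higher with shSKP2.2 in JR1 (1.41), from 0.850 to 3.91 TPM. Over the list, 2 of 9 were called lower with shSKP2.2 in each line, against 7.37% of all genes in RD and 9.05% in JR1, and 1 of 9 higher in JR1, against 1.78%.

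Other factors of limb and trunk position were also compared. Of the limb markers, PITX1, of the hindlimb, was at 17.5 and 17.3 TPM in RD and at 18.8 and 23.9 TPM in JR1, while TBX4, also of the hindlimb, was below 0.1 TPM and TBX5, of the forelimb, was listed at 0 in all 4 libraries. With shSKP2.2 in RD, 2 of the 10 genes of this list that were compared were called lower, against 7.37% of all genes. TBX2 fell by 1.62, from 23.3 to 6.90 TPM, and ISL1 fell by 1.77, from 7.89 to 1.60 TPM. With shSCR, TBX2, LMX1B and ISL1 were among the genes called lower in JR1 and TBX18 was called higher, at 9.71 vs 4.26 TPM. Of all genes, 6.50% were called lower and 3.45% higher in that comparison. LMX1B and ISL1 were below 1 TPM in both JR1 libraries and passed the minimum through RD alone. They were called lower in JR1 with shSKP2.2 as well, at -1.07 and -1.13, 2 of 10 against 5.39% of all genes. The 8 genes at the ends of the clusters and in the ParaHox group, which include EVX1 and CDX2, were all below the minimum, with 0.810 TPM for CDX2 in RD shSCR as the highest value.

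The chromatin regulators that keep HOX genes on or off are the trithorax and Polycomb groups. Of 12 trithorax-side genes compared, 1 was called higher and 2 lower with shSKP2.2 in RD, against 1.08% and 7.37% of all genes, and 1 lower in JR1, against 9.05%. After rescaling it was 1 of 13 higher and 0 lower in RD, against 4.40% and 3.45% of all genes, and 2 of 13 higher and 0 lower in JR1, against 4.89% and 7.48%. KDM6B, a demethylase of the Polycomb mark, rose by 1.05 in RD, from 13.2 to 28.4 TPM, and had a change of 0.98 in JR1, which was 1.27 after rescaling. The other gene past the limit in JR1 after rescaling was MLLT3 (1.37), at 0.980 TPM or less as deposited. ASH2L, a core subunit of the MLL complexes, fell in both lines (-1.30 and -1.12), but was at -0.94 in both after rescaling. PSIP1, which tethers MLL to chromatin, fell by 1.04 in RD and was at -0.71 after rescaling. Of 14 Polycomb genes, PHC1 fell by 1.38 and BMI1 fell by 1.26 with shSKP2.2 in RD, 2 of 14 against 7.37% of all genes. In JR1, 0 of 14 were called, against 9.05% of all genes lower and 1.78% higher. There JARID2, a partner of the PRC2 complex, was at 0.86 as deposited and at 1.17 after rescaling, 1 of 14 higher against 4.89%. In JR1 against RD with shSCR, 4 of 14 Polycomb genes were called lower, against 6.50% of all genes. They were CBX2 (-1.98), JARID2 (-1.25), RING1 (-1.24) and BMI1 (-1.01). CBX2 was called lower with shSKP2.2 as well (-1.50), 1 of 14 against 5.39% of all genes. After rescaling RING1 was at -0.97 and BMI1 at -0.83 with shSCR.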

How the data were processed

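RNA was measured in 4 libraries, RD and JR1 with shSCR or shSKP2.2. Following the methods and the submitters' processing notes, the authors selected poly-A RNA, sequenced directional libraries as pairs of 150 bases, aligned reads to GRCh38 with STAR 2.7.9a and deposited TPM from RSEM 1.3.2, with 2 decimals. The depth is unknown. TPM were used as deposited, with log2 of TPM + 1 differences, a mean minimum of 1 TPM and a limit of 1. Short structural RNA genes were taken by symbol. The HOX family, whose members the symbols then fixed, the 7 lists of other genes and the marker lists were chosen with earlier results of these data known. HOX genes with at least 5 TPM in a library or called in a comparison were named with all values. Called list genes, at most the 6 largest per list and comparison, were named with TPM values, log2 values or both. HOX genes and list genes outside this rule (HOTAIR, HOXC-AS2, HOXA-AS3, MLLT3, PITX1, TBX4, TBX5, CDX2 and the muscle markers) were named after their values were seen. Exon overlap was computed from GENCODE release 44 and promoters came from RefSeq, with entries for 20 of 39 members. A limma 3.58.1 fit of log2 of TPM + 1 on line and hairpin over the 4 libraries, with a mean-variance trend and Benjamini-Hochberg adjustment over all genes compared, was added after seeing the data. Counts of calls and this fit were tested on simulated data. Python 3.11.15, numpy 2.4.6, pandas 2.3.3 and matplotlib 3.10.9 were used. The authors' own fold changes, the ChIP-seq, the HiChIP and the proteins were not analysed here. A few items are not reported here.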

Additional observations from a re-analysis of the deposited data

Results flagged for a closer look

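Among 96 HOX genes and list genes compared (of 133), RXRG, a retinoid X receptor, had changes of opposite sign with shSKP2.2, -0.90 in RD and 1.41 in JR1 on the log2 scale. In RD it was at 1.93 TPM with shSCR and 0.570 TPM with shSKP2.2, and in JR1 at 0.850 and 3.91 TPM. This difference between the lines was not tested, as there was 1 library per group. The same rule, a change of at least 0.5 in size in both lines with opposite signs, was met by 0 HOX genes.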

How the results depend on the processing

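With 1 library per group no value has a replicate error, and TPM give no depth. No library could be left out of a group. Settings tried were 0.1 TPM as the pseudocount, centring each comparison on its all-gene median, removal of short structural RNA genes, no minimum or a minimum of 5 TPM, and a limit of 1.5-fold. No HOX value reversed its direction past the limit. With the limit of 1.5-fold, HOX genes called lower with shSKP2.2 numbered 8 in RD and 9 in JR1, with 1 higher in JR1, against 23.2%, 23.4% and 5.31% of all genes at that limit, and those lower in JR1 than in RD numbered 20 with shSCR and 19 with shSKP2.2, against 20.4% and 16.2%. In JR1, 7 were called lower with shSKP2.2 with the smaller pseudocount (13.6% of all genes) and 1 after centring (5.47%), and 1 was called higher without short structural RNA genes (4.89%). The cause was not tested. At a level of 5 TPM, expressed members numbered 21 in RD with shSKP2.2, and in JR1 14 with shSCR and 10 with shSKP2.2. Rescaling without short structural RNA genes raised the sums (RD shSCR, RD shSKP2.2, JR1 shSCR, JR1 shSKP2.2) to 278, 227, 134 and 93.7 TPM for HOXA, 421, 337, 257 and 188 TPM for HOXB, 237, 230, 194 and 203 TPM for HOXC and 109, 120, 35.6 and 46.0 TPM for HOXD, by construction. In the limma fit with the replicate block (line for the hairpin term, hairpin for the line term, chosen after seeing the data), 10 HOX genes were lower with shSKP2.2 as deposited and 4 after rescaling, with 1 higher, and 17 and 18 were lower in JR1. The 18 include HOXA2, HOXD1, HOXD10 and HOXD11, which passed the minimum through RD after rescaling. By size alone, 1 HOX gene was lower with shSKP2.2 in both lines and 10 were lower in JR1 in both conditions. Of 128 changes of single members per setting, 11 crossed the limit or moved by over 1.5-fold with the smaller pseudocount, 7 after centring and 7 after rescaling.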
